A study of Mus musculus with 9 samples.

Results

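The genes described here are the cytosolic ribosomal protein genes, measured by RNA-seq in melanocyte lineage cells sorted from mouse dermis. They were chosen by symbol alone: protein-coding genes named Rpl or Rps plus a number (with an optional a, l, x or y), the stalk genes Rplp0, Rplp1 and Rplp2, and Rpsa. This gave 80 genes of the 49671 in the deposited tables, 31 of the small and 49 of the large ribosomal subunit. The cells were KIT-positive and CD45-negative, KIT being a receptor of melanocyte lineage and mast cells and CD45 an immune cell marker. Melanoblasts, which are precursors of melanocytes, came from the skin of C57BL/6J pups at postnatal day 0.5 (3 libraries). Quiescent melanocyte stem cells (McSC) came from adult C57BL/6J mice, labelled as 8 weeks old and described elsewhere in the record as 8 to 10 weeks (4 libraries), and from C57BL/6 mice aged 24 months (2 libraries). All mice were wild type and female, and no group was treated. Adult and aged skin was in telogen, when hair follicles rest and hold McSC and no differentiated melanocytes. Each library pooled the cells of several animals. The 24-month mice came from an aged rodent colony at 21 months of age while the younger mice were bred in house, so age and colony cannot be told apart.

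Ribosomal proteins surround the ribosomal RNA of the small subunit, which reads the mRNA, and of the large subunit, which joins amino acids. They are needed in near-equal numbers, and a cell that divides must double its ribosomes, so their genes are among the most strongly expressed of growing cells. Their mRNAs start with a stretch of C and T known as the 5′ terminal oligopyrimidine (TOP) tract, through which the growth kinase mTORC1 and the RNA-binding protein LARP1 adjust their translation and stability. In mice, changes in Rps19 and Rps20 are known to darken the skin, and changes in Rpl24 to leave a white belly spot.

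The stretch around the annotated transcription start is shown for 3 members with some of the largest falls from melanoblasts to adult McSC (Rpl39, Rpl15 and Rps24), for the most abundant member, Rpl4, whose fall was near the median, and for 4 members that changed less (Rps27, Rps21, Rpl9 and Rpl35a). Starts and sequences are those of RefSeq on build GRCm38.p6, whose table held 60 of the 80 members. Each line gives 30 bases before the start and 25 from it on, 5′ to 3′ on the strand of the gene, and the capitals mark the longest run of C or T in those bases. The windows lie at chrX:37085198-37085252 (minus strand) for Rpl39, chr14:18270962-18271016 (minus) for Rpl15, chr14:24490648-24490702 (plus) for Rps24, chr9:64173357-64173411 (plus) for Rpl4, chr3:90213624-90213678 (minus) for Rps27, chr2:180257349-180257403 (plus) for Rps21, chr5:65391407-65391461 (minus) for Rpl9 and chr16:33056423-33056477 (plus) for Rpl35a.
Rpl39: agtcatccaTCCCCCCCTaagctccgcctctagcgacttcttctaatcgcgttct
Rpl15: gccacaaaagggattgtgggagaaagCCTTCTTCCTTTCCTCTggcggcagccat
Rps24: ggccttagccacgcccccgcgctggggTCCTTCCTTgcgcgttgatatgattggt
Rpl4: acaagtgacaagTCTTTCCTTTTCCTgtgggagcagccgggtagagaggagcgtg
Rps27: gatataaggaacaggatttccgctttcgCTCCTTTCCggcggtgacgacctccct
Rps21: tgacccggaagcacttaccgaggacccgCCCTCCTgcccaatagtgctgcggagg
Rpl9: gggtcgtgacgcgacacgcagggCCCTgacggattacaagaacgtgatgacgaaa
Rpl35a: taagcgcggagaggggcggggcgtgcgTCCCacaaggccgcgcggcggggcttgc

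In the lines for Rpl15, Rps24, Rps27, Rps21 and Rpl35a the run crosses the annotated start, and it reaches 17 bases in Rpl15. In Rpl9 and Rpl35a the longest run in the window had 4 bases. Over the 60 members with an entry, 33 (55.0%) held a run of at least 8 C or T on their own strand within 40 bases before to 30 bases after the start, against 26.0% of 16455 protein-coding genes with an entry. The motif CCGGAAG, on either strand of the 300-base window (250 before and 50 from the start on), was present in 24 of these 60 members and in 12.4% of all coding promoters, and TATAAA, on either strand, in 8.33% and 12.8%. The median log2 fold change from melanoblast to adult, in the fit described below, was -1.17 over the 32 tested members with the run (-1.73 to -0.44) and -1.05 over the 26 without (-1.43 to 1.11), and the ranges overlapped. Among members not shown, Rpl13a and Rpl34 changed little (-0.44 and -0.78) and held runs of 14 and 8 bases. Rpl24 and Rpl3l, also not shown, had positive values (1.11 and 1.01) and longest runs of 6 and 5 bases. These shares depend on where the start is annotated, which for some members differs between RefSeq and GENCODE: by 3553 bases for Rps24, 405 for Rpl15 and 180 for Rpl39, and by at most 13 for the other 5 members shown.

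Total counts ran from 12594770 to 33710117 per library, and mitochondrial rRNA took between 21.5% and 37.6% of them. The TMM scaling factors of edgeR, which assume that most genes keep their level, differed widely: melanoblast libraries had factors of 0.56 to 0.84, adult libraries 1.09 to 1.21 and aged libraries 1.38 and 1.52. Values in TMM CPM (counts per megacount of the TMM-scaled library) and values per megacount of the plain library total therefore give different changes for abundant genes. Values are on the TMM scale unless library totals are named. Reads on olfactory and vomeronasal receptor genes, which these cells are not known to use, numbered 166 to 374 per megacount in melanoblast libraries, 763 to 1464 in those of adults, and 1573 and 1691 in the aged ones. All 8 genes of a cell division list (Mki67, Top2a and others) fell from melanoblast to adult (median log2 fold change -4.55, and -3.68 on library totals). Markers of other cells moved as well. Marker calls below are on the TMM scale, while marker sums are per megacount of the plain library total. Of 10 keratinocyte markers 9 rose, with sums of 260.2 to 372 (melanoblast), 1613 to 2838 (adult) and 1503 and 1901 (aged). Of 8 Schwann cell markers 4 rose from melanoblast to adult (289 to 305 against 785 to 1089) and 5 fell from adult to aged (377 and 465). Of 10 melanocyte lineage markers 8 fell from melanoblast to adult, and their sums were 12181 to 14951 (melanoblast), 5349 to 11848 (adult) and 11317 and 12344 (aged). Of 8 fibroblast markers 5 fell and 1 rose from melanoblast to adult and 3 fell from adult to aged (492 to 1217, 554 to 1123, and 166 and 351). Of 7 mast cell markers tested 3 fell from melanoblast to adult (1617 to 1910 against 730.5 to 1756), and of 6 endothelial markers 2 rose (26.5 to 42.1 against 61.4 to 222). The most abundant mast cell marker was Kit, the receptor used for the sort, which is also on the melanocyte lineage list. The mast cell sum thus does not stand for mast cells alone. Of 8 macrophage and dendritic cell markers 3 rose (sums of 14.2 to 36.9, 49.0 to 75.0, and 87.6 and 155). No defining marker of these lists was at 0 in all libraries, and the part of these shifts in the results below was not tested. In sorted bulk cells, fewer cells with a high ribosomal content and less RNA per cell cannot be told apart.

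Summed over all 80 members, ribosomal protein genes made up a modest share of each library, which was lowest in the aged cells. They took 1.41%, 1.51% and 1.20% of counts in the 3 melanoblast libraries, 0.976%, 1.18%, 1.13% and 1.26% in the 4 adult libraries, and 0.924% and 0.656% in the 2 aged libraries. The melanoblast and adult ranges overlapped, since adult replicate 4 lay above melanoblast replicate 3, while both aged libraries lay below every other library. The means were 1.37% ± 0.154 (SD, n = 3), 1.13% ± 0.118 (SD, n = 4) and 0.790% ± 0.190 (SD, n = 2). Exact two-sided permutation tests gave p = 0.114 for adult against melanoblast, p = 0.133 for aged against adult and p = 0.2 for aged against melanoblast, each 0.2 after Benjamini-Hochberg adjustment over the 3 pairs. With these group sizes the smallest possible p is 0.0571, 0.133 and 0.2, so none of these comparisons could pass 0.05.

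The denominator mattered, since the mean share of mitochondrial transcripts was highest in the melanoblast libraries. Mitochondrial transcripts took 36.6% to 41.4% of counts in melanoblast, 24.2% to 36.7% in adult, and 27.1% and 25.1% in aged libraries. The melanoblast and adult ranges thus overlapped narrowly (exact permutation p = 0.114). As a share of nuclear protein-coding counts, members took 2.54%, 2.71% and 2.04% in melanoblast, 1.70%, 1.72%, 1.88% and 1.92% in adult, and 1.41% and 0.979% in aged libraries. On this measure no group overlapped another, and the order was melanoblast, adult, aged (exact permutation p = 0.0571, 0.133 and 0.2 for the 3 pairs, in each case the smallest the design allows). Within each group the library with the lowest member share was the one with the most receptor reads: melanoblast replicate 3, adult replicate 1 and aged replicate 2. Whether that background has a part in the differences between groups was not tested.

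**Figure D1:**
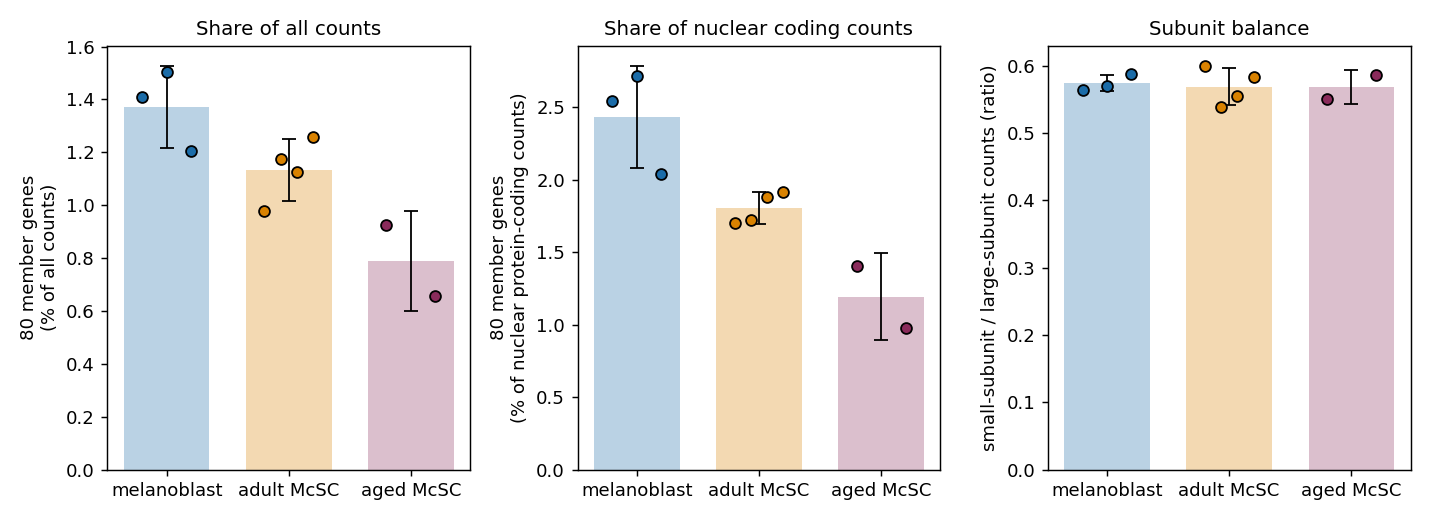
Summed counts of the 80 cytosolic ribosomal protein genes as a percent of all counts (left) and of nuclear protein-coding counts (middle), and the ratio of small-subunit to large-subunit counts (right), with 1 point per library, bars at group means and error bars of 1 SD. Both aged libraries lie below all others in the left and middle panels, and the ratio lies between 0.54 and 0.60 in every library.

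The balance between the 2 subunits did not differ beyond the spread between libraries. Counts on small-subunit genes were 0.565, 0.571 and 0.588 times those on large-subunit genes in melanoblast, 0.600, 0.540, 0.555 and 0.583 times in adult, and 0.551 and 0.587 times in aged libraries. The groups overlapped fully, with means of 0.575 ± 0.0121 (SD, n = 3), 0.569 ± 0.0271 (SD, n = 4) and 0.569 ± 0.0252 (SD, n = 2), and exact permutation tests gave p = 0.8, 1 and 0.8. Counts on 274 pseudogenes of ribosomal protein genes, by contrast, were higher relative to the members in the older groups: per 100 member counts there were 1.03 to 1.33 such counts (melanoblast), 1.46 to 1.89 (adult), and 2.12 and 2.47 (aged), with no overlap between groups (exact permutation p = 0.0571, 0.133 and 0.2). The member counts divide this ratio, and their mean share of counts was itself lower in the older groups. The ratio alone therefore does not show that pseudogene counts rose.

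From newborn melanoblasts to adult McSC, ribosomal protein genes were lower almost without exception when libraries were scaled with TMM factors, and only slightly lower when they were scaled by their totals. Of the 78 members tested, 73 fell and none rose with TMM factors (edgeR quasi-likelihood test, adjusted p under 0.05), where 18.3% of all 31961 genes tested were called lower and 15.1% higher. Rpl10l and Rpl39l had too few counts to be tested. Their median log2 fold change was -1.14, a 2.20-fold lower level, against 0.39 for all genes tested. Abundant genes in general were lower on this scale: among the 4391 genes averaging at least 32 CPM, 64.9% fell and the median was -0.83. The libraries of the 2 groups did not overlap for 65 members, 64 of them lower and 1 higher in adult cells (all genes: 19.8% lower and 19.5% higher).

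With library totals in place of TMM factors, 16 members fell and 1, Rpl24, rose (all genes: 4.65% lower and 34.5% higher). The median was -0.25, while that of all genes was 1.17 and that of the abundant genes 0.02. The 16 members are 20.5% of those tested, close to the 19.9% of abundant genes that fell on this scale. The median of the members lay 0.31 (log2) below that of the abundant genes with TMM factors; a scaling factor moves both medians alike, so other scalings are no further check of this distance. A stricter filter on low counts, under which TMM factors moved too, left 54 of 76 members lower.

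**Figure D2:**
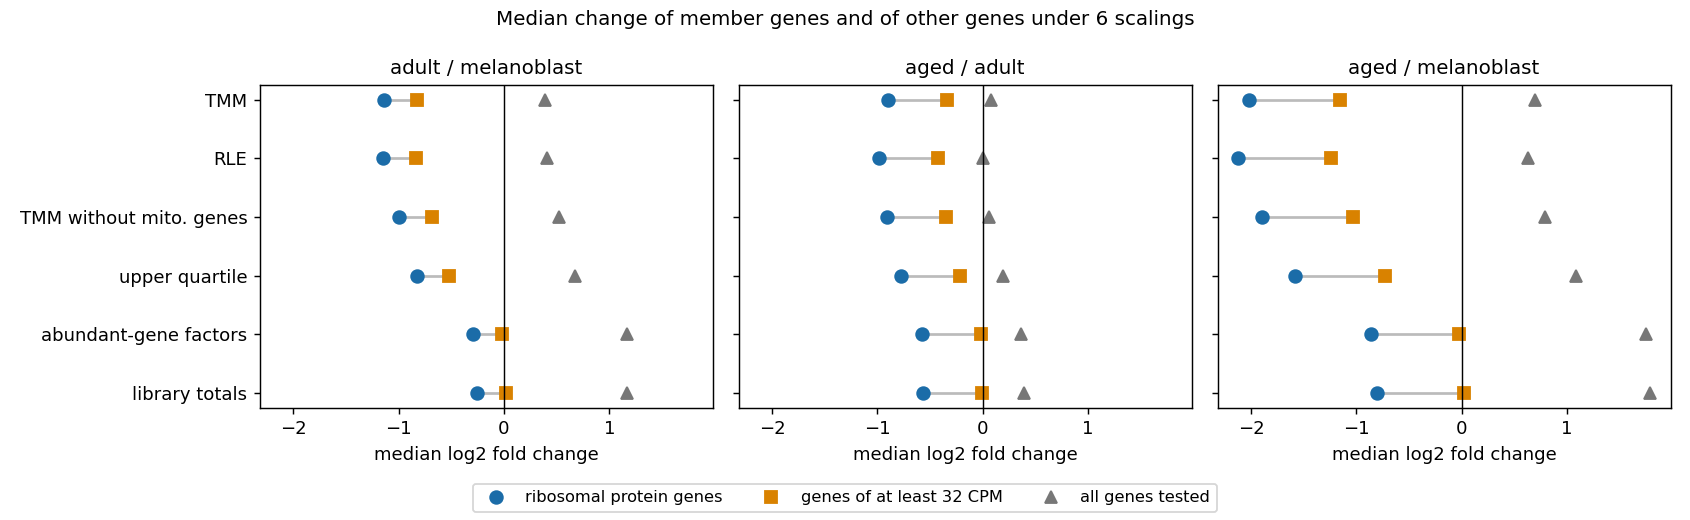
Median log2 fold change of the tested ribosomal protein genes (circles), of genes averaging at least 32 CPM (squares) and of all genes tested (triangles) in the 3 comparisons, under 6 ways of scaling the libraries. The position of all 3 symbols shifts with the scaling, by nearly the same amount for members and abundant genes, since a scaling factor moves all genes alike.

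On the TMM scale all 31 small-subunit genes fell (median -1.15), against 42 of the 47 large-subunit genes tested (median -1.10). On library totals 7 small-subunit and 9 large-subunit genes fell. The 5 members that were not called on the TMM scale were Rplp1, Rpl35a, Rpl13a, Rpl3l and Rpl24, all of the large subunit.

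**Figure D3:**
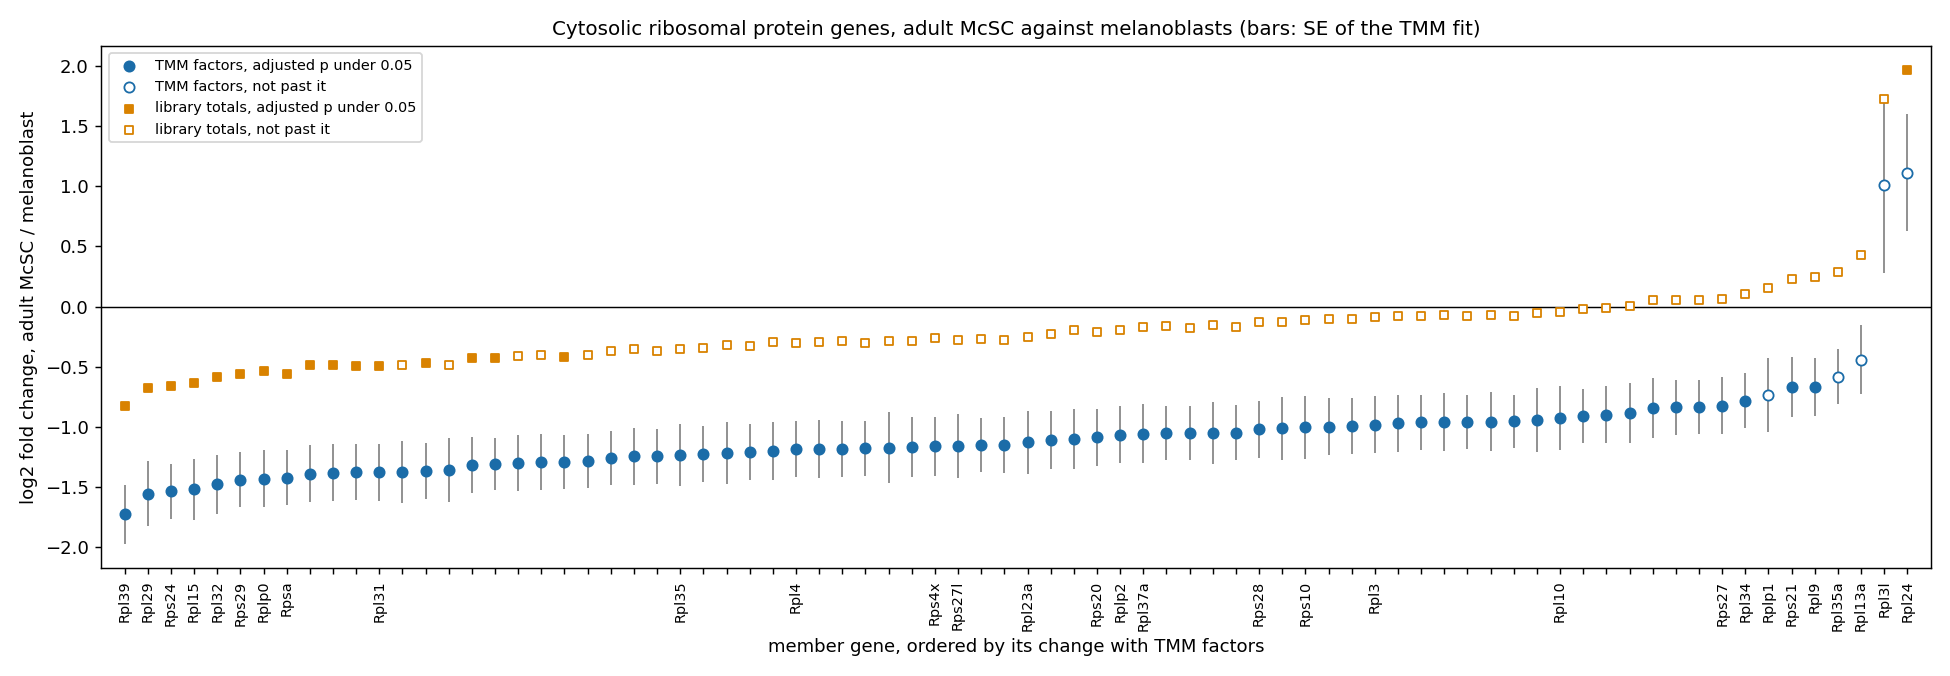
Log2 fold change of each of the 78 tested members from melanoblast to adult McSC, ordered by the TMM fit (circles, with SE bars), with the fit on library totals for the same gene (squares) and names under members described in the text. Filled symbols passed an adjusted p of 0.05; the 73 filled circles lie between -1.73 and -0.66, and the squares follow the same order at a higher level.

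The stalk of the large subunit, which recruits and activates elongation factors, is built on Rplp0, to which Rplp1 and Rplp2 bind in pairs. Rplp0 (ENSMUSG00000067274, chr5:115559467-115563727, plus strand) stood at 512, 614 and 300.2 TMM CPM in melanoblast, 171, 189, 162 and 184 in adult, and 126 and 87.0 in aged libraries. All adult libraries lay below all melanoblast libraries, and the log2 fold change was -1.43 (SE 0.24, edgeR adjusted p = 5.86e-05). Rplp2 fell by 1.07 on the log2 scale (edgeR adjusted p = 0.00113). For Rplp1 the groups overlapped: 215, 209.8 and 109 TMM CPM in melanoblast against 52.9, 156, 101 and 119 in adult libraries, a log2 fold change of -0.73 (SE 0.31, edgeR adjusted p = 0.07). On library totals Rplp0 was lower by the test (log2 fold change -0.54, adjusted p = 0.0271) and the other two were not (-0.19 and 0.15, adjusted p = 0.4 and 0.678).

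Among small-subunit genes the largest fall was that of Rps24 (ENSMUSG00000025290, chr14:24487125-24496959, plus strand), one of the genes mutated in Diamond-Blackfan anaemia, an inherited failure to make red blood cells. It stood at 558, 603 and 339.9 TMM CPM in melanoblast, 143, 192, 173 and 183 in adult, and 102 and 97.6 in aged libraries. The 3 groups did not overlap, and the melanoblast to adult change was -1.54 (log2, SE 0.23, edgeR adjusted p = 1.38e-05), and -0.66 on library totals (SE 0.15, adjusted p = 0.00451). Rpsa, the small-subunit protein also studied as a laminin receptor precursor, fell by 1.42 (edgeR adjusted p = 3.39e-05), from 384 to 567 TMM CPM down to 141 to 212. Rps29, another gene of that anaemia, fell by 1.44 (adjusted p = 3.19e-05). Both also fell on library totals, by 0.56 each (adjusted p = 0.023 and 0.0204).

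Rps4x, the X-linked small-subunit gene, was counted evenly across the adult libraries. Its TMM CPM was 822, 859 and 418 in melanoblast, then 312, 313, 311 and 315 in the adult and 206 and 145 in the aged libraries. The change to adult was -1.16 (SE 0.24, edgeR adjusted p = 0.00065) and -0.26 on library totals (adjusted p = 0.238). At the other end stood Rps21, with 82.2, 71.4 and 38.2 TMM CPM in melanoblast and 29.1 to 48.4 in the 4 adult libraries, which overlapped. Its fall of 0.67 passed narrowly (SE 0.25, edgeR adjusted p = 0.0394), and its value on library totals was positive at 0.23 (adjusted p = 0.341).

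In the large subunit the deepest fall belonged to Rpl39 (ENSMUSG00000079641, chrX:37082520-37085402, minus strand), which encodes a very small protein lining the tunnel through which the new chain leaves. It stood at 284, 298 and 146 TMM CPM in melanoblast, 62.2, 75.1, 77.3 and 78.4 in adult, and 44.7 and 27.8 in aged libraries. The 3 groups were separate, and the melanoblast to adult change was -1.73 (SE 0.25, edgeR adjusted p = 8.59e-06). On library totals it was -0.83 (SE 0.19, adjusted p = 0.00422), and the groups were again separate. Rpl39 shares no window of read length (126 bases) with the transcript of another annotated gene. This covers exact matches of full length only, not shorter or mismatched reads or unannotated copies.

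Other large-subunit genes fell by like amounts. Rpl29, Rpl15 and Rpl32 fell by 1.55, 1.52 and 1.48 (log2, edgeR adjusted p = 8.5e-05, 5.59e-05 and 5.81e-05), and each was also lower on library totals (-0.68, -0.63 and -0.58, adjusted p = 0.0286, 0.0178 and 0.0258). The abundant members Rpl4, Rpl31 and Rpl10 fell by 1.18, 1.38 and 0.92, and of these 3 Rpl31 alone passed on library totals (-0.49, edgeR adjusted p = 0.0439). Rpl4 had the most counts of all members: 1956, 2013 and 1129 TMM CPM in melanoblast, 632, 839.7, 799.6 and 719.7 in adult, and 454 and 458 in aged libraries. Rpl10, which joins the large subunit late, shares 91.2% of its read-length windows with other annotated transcripts, so its counts are uncertain.

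With Rplp1 and Rps21, the smallest changes among members above 5 CPM were those of Rpl34, Rpl9, Rpl35a and Rpl13a. Rpl9 (ENSMUSG00000047215, chr5:65388364-65391444, minus strand) stood at 387, 404 and 184 TMM CPM in melanoblast against 199, 213, 195 and 213 in adult libraries. Melanoblast replicate 3 lay below the adult libraries, whereas the other two lay well above. Its change was -0.66 (SE 0.24, edgeR adjusted p = 0.0363), and that of Rpl34 -0.78 (adjusted p = 0.0116). Rpl35a, another gene of the anaemia named above, gave -0.58 (adjusted p = 0.0518) and Rpl13a -0.44 (adjusted p = 0.241). On library totals all 4 had positive values, of 0.24, 0.10, 0.29 and 0.43, none past the test. Rpl9 shares 82.2% of its windows with other transcripts, and Rpl13a overlaps other genes, as given below.

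Dividing by the summed member counts of each library sets aside the choice of scaling factor and shows how the mix of ribosomal protein mRNAs changed. This rescales the same counts and is not independent of the fits above. From melanoblast to adult, 72 of 78 members kept within 0.5 (log2) of the common movement and 55 within 0.25. Relative to it 3 rose (Rpl24 by 2.27, Rpl35a by 0.55 and Rpl9 by 0.54, edgeR adjusted p = 0.00844, 0.0234 and 0.0287), and Rpl39 fell by 0.55 (adjusted p = 0.0206), where 39.3% of all genes tested rose and 2.11% fell relative to the member total. These 4 calls rested on few libraries: 1 was left without melanoblast replicate 1 or replicate 2, and 2 without adult replicate 3 or replicate 4.

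The share of Rpl39 in all member counts was 1.13%, 1.13% and 1.02% in melanoblast, 0.761%, 0.692%, 0.782% and 0.751% in adult, and 0.731% and 0.581% in aged libraries. No melanoblast library overlapped an adult or aged one. Rpl9 had the opposite order, with 1.54%, 1.53% and 1.28% in melanoblast, 2.43%, 1.96%, 1.98% and 2.04% in adult, and 2.28% and 2.45% in aged libraries. Rps24 had a value of -0.39 relative to the member total that did not pass (adjusted p = 0.074). From adult to aged no member was called by edgeR on this measure (all genes: 0.66% higher and 0.0532% lower; 1 member had an unadjusted p under 0.05), and 75 of 78 kept within 0.5.

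**Figure D4:**
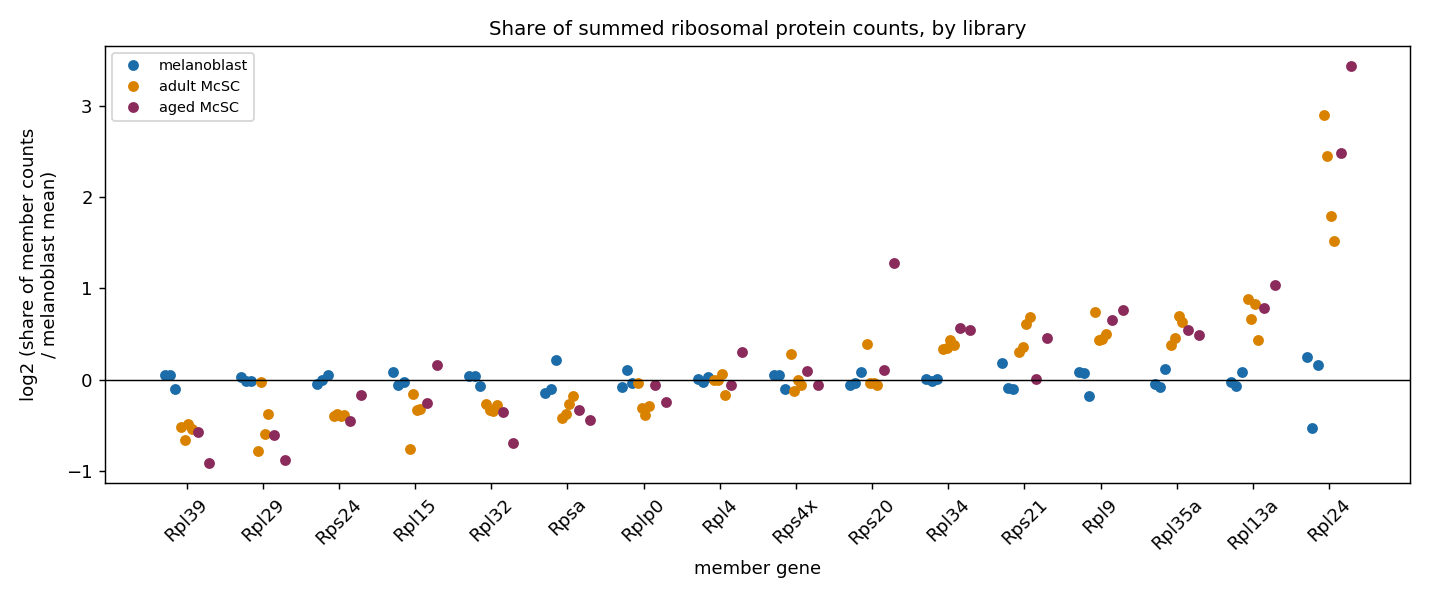
Share of each named member in the summed ribosomal protein counts of a library, as log2 of the ratio to the melanoblast mean, with 1 point per library. Rpl39 lies below 0 and Rpl34, Rpl9 and Rpl35a lie above 0 in all 6 McSC libraries. For Rps20 the aged libraries lie far apart.

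Levels differed widely among members although their proteins are needed in like numbers. Per kb of principal transcript, the mean over the 9 libraries was highest for Rps27 (666 TMM CPM per kb), Rpl4 (650.3), Rpl31 (564) and Rps25 (539), and the median over all members was 166. Of the 80 members, 75 averaged at least 10 TMM CPM. The lowest were the paralogues Rpl10l, Rpl39l and Rpl3l, followed by 4 core genes of the large subunit: Rpl24 (3.44 TMM CPM per kb), Rpl13a (7.03), Rpl35 (18.0) and Rpl23a (27.9).

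These 4, singled out after their values were seen, share a feature of position. In the GENCODE annotation 71.5% of the exonic bases of the principal transcript of Rpl24 lie under an exon of another gene, Gm28037. The values were 59.3% for Rpl13a (Gm45713 and Mir5121), 68.3% for Rpl35 (Arpc5l and Wdr38) and 55.4% for Rpl23a (Tlcd1). Only 1 other member exceeded 50%, Rps10 at 63.6% (Gm15420). It stood at 113 TMM CPM per kb, well above these 4 but below the median of 166 over all members. Gm28037, Gm45713 and Mir5121 had 0 counts in every library. How reads under the exons of 2 genes were counted is not given in the sources used here. Across the 78 tested members the Spearman correlation of overlap with the level per kb was -0.31, a description over genes that share libraries.

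**Figure D5:**
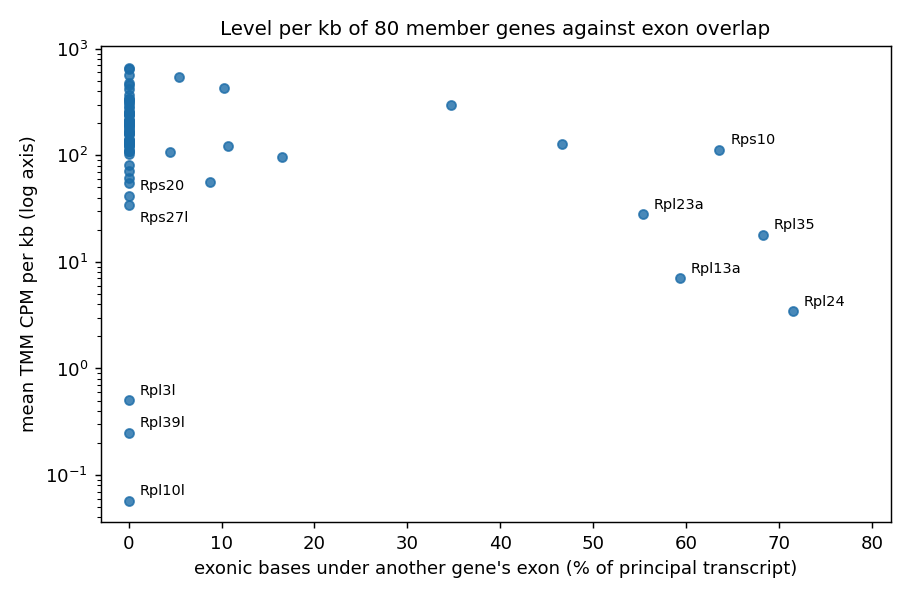
Mean level over 9 libraries (TMM CPM per kb of principal transcript, log axis) against the percent of exonic bases that lie under an exon of another annotated gene, with 1 point per member. Rpl24, Rpl13a, Rpl35 and Rpl23a lie at the right and low, and the paralogues Rpl3l, Rpl39l and Rpl10l at the left and lowest. Rps10 lies at the right, above Rpl24, Rpl13a, Rpl35 and Rpl23a but below the median of all members.

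Rpl24 (ENSMUSG00000098274, chr16:55966275-55971435, plus strand) is the gene whose mutation gives the white belly spot named above, and was the sole core member with a higher value in adult cells on the TMM scale (on library totals 65 of the 78 members were below 0). Its TMM CPM was 1.87, 1.15 and 1.00 in melanoblast, 3.82, 3.72, 2.15 and 1.87 in adult, and 2.14 and 3.24 in aged libraries. Every adult library lay above every melanoblast library, by little for adult replicate 4. The log2 fold change was 1.11 (SE 0.49, edgeR adjusted p = 0.0787), and 1.97 on library totals (SE 0.51, adjusted p = 0.00759). With the overlap given above, how far these counts stand for its mRNA is not known.

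Reads of near-identical genes add a second uncertainty. Over all members, a median of 32.8% of read-length windows were shared with the transcripts of other annotated genes. Sharing was absent in 11 members, exceeded 50% in 26 and was highest in Rps27, at 98.2%. Across the 75 tested members above 10 TMM CPM, the Spearman correlation of this share with the melanoblast to adult change was 0.10, a weak relation.

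The paralogues, most of them used in special tissues, were weak. Rpl3l, known from muscle, gave 0.311, 0.156 and 0.652 TMM CPM in melanoblast, 1.25, 0.727, 0.536 and 0.541 in adult, and 1.17 and 0.868 in aged libraries, with overlap between the groups and a change of 1.01 (SE 0.74, edgeR adjusted p = 0.291), while its partner Rpl3 fell by 0.98 (adjusted p = 0.00276), though on library totals its value was -0.084 (adjusted p = 0.695). Rpl10l and Rpl39l, both known from testis, stayed below 0.6 TMM CPM in every library. Rps27l, known as a p53 target, had a sizeable level and fell with the others: 34.7, 32.9 and 19.1 TMM CPM in melanoblast against 7.75, 14.8, 15.1 and 14.1 in adult libraries (log2 fold change -1.16, adjusted p = 0.00172). Rps27 fell by 0.82 (adjusted p = 0.00969). On library totals neither passed, at -0.28 for Rps27l and 0.064 for Rps27.

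From adult to aged McSC, members were lower in most libraries but none passed the main test. The median log2 fold change was -0.90, a 1.86-fold lower level, against 0.08 for all genes tested and -0.34 for abundant genes. No member was called by edgeR (0.25% of all genes were called lower), the smallest adjusted p being 0.136, while 72 of 78 had an unadjusted p under 0.05 (all genes: 10.2%). DESeq2 called 20 members lower (all genes: 0.907%) and limma voom 66 (all genes: 2.01%). Both aged libraries lay below all 4 adult libraries for 68 members (all genes: 12.1% lower). On library totals the median was -0.57, again none was called (all genes: 0.1% lower), 59 had an unadjusted p under 0.05 (all genes: 10.0%), and 47 did not overlap (all genes: 3.44%).

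With TMM factors the median of the members lay 0.56 (log2) below that of the abundant genes in this comparison. The 2 aged libraries differed among themselves. Without aged replicate 2, the library with the lowest member share, the median was -0.68 with TMM factors, and without aged replicate 1 it was -1.13, and none was called either way. Leaving out melanoblast replicate 3, which is in neither group compared, raised the number called from 0 to 27. The filter, the scaling factors and the shared estimate of spread were redone in that fit, and the median stayed at -0.90.

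Rpl37a, Rps21 and Rps28 were among the members with the smallest p in this comparison. Rpl37a stood at 71.1, 100.2, 89.3 and 119 TMM CPM in adult and 53.1 and 34.2 in aged libraries (log2 fold change -1.12, SE 0.30, edgeR adjusted p = 0.136). Rps21 stood at 29.1 to 48.4 in adult and 17.7 and 18.9 in aged libraries (-1.13, SE 0.30, adjusted p = 0.14). Rps28 gave -1.07 (edgeR adjusted p = 0.145), and in all 3 genes both aged libraries lay below every adult library. Rps20 was unlike the rest, a gene named here after its values were seen: it stood at 120.0, 118, 108 and 113 in adult libraries and at 74.1 and 131 in the aged ones, which thus lay on both sides of the adult range (log2 fold change -0.17, adjusted p = 0.861).

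The melanoblast and aged groups were the farthest apart. With TMM factors 76 of 78 members fell (edgeR; all genes: 20.3% lower), with a median of -2.02, and on library totals 62 fell and 2, Rpl24 and Rpl3l, rose (all genes: 4.42% lower and 48.9% higher), with a median of -0.81. Of abundant genes 72.5% fell with TMM factors, with a median of -1.15, and 20.4% on library totals, with a median of 0.02. This comparison shares the melanoblast libraries with one of the comparisons above and the aged libraries with the other. Relative to the member total, 8 members rose (Rpl3l, Rpl24, Rpl13a, Rps20, Rpl9, Rps12, Rpl34 and Rpl35a) and 3 fell (Rpl29, Rpl39 and Rpl32), where 73.7% of all genes rose and 0.848% fell.

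Genes that build and serve the ribosome were examined beside the members, from lists chosen by function. Their counts stand beside the 18.3% of all genes tested and the 64.9% of abundant genes that were called lower on the TMM scale. On library totals 4.65% of all genes and 19.9% of abundant genes were called lower, and 34.5% of all genes higher. Ribosomal proteins whose symbols fall outside the rule followed them: 6 of 7 fell from melanoblast to adult (edgeR, TMM factors; median -0.96), among them Rack1, the scaffold on the head of the small subunit, by 1.32 and Rps3a1 by 1.11 (adjusted p under 0.05), and none passed on library totals. Of 34 ribosome biogenesis factors 22 fell and none rose (median -0.90), a share like that of abundant genes, and on library totals 4 fell and 4 rose. The nucleolar chaperone Npm1 changed most, from a mean of 3361 ± 806 TMM CPM (SD, n = 3) to 543 ± 51.6 (SD, n = 4), a fall of 2.63 (log2), and of 1.75 on library totals (edgeR adjusted p = 0.000182), and Ncl, which acts on new ribosomal RNA, fell by 1.53 and by 0.68. Of 20 genes of RNA polymerase I, which makes ribosomal RNA, 10 fell (median -0.78), Rrn3, its initiation factor, by 1.29, and 1 fell and 1 rose on library totals.

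The factors that work with the finished ribosome gave like counts. Of 36 initiation factors 29 fell (median -1.22), Eif3b, Eif2s1 and Pabpc1 by 1.76, 1.55 and 1.45, and on library totals 11 fell and 3 rose. Of 8 elongation factor genes 6 fell (median -1.19), among them Eef1a1, which brings aminoacyl-tRNA, from 5251 ± 1472 (SD, n = 3) to 1926 ± 459 TMM CPM (SD, n = 4), and its tissue-specific paralogue Eef1a2 rose by 2.75 from a mean of 0.419 to 2.90. On library totals 3 elongation factor genes fell and 1 rose. Of 16 quality control and ribosome-associated factors 11 fell (median -0.76), and on library totals 1 fell and 1 rose (median 0.094). Of 30 mTOR, TOP and eIF2 regulators 18 fell and 1, Myc, rose (by 1.01, and by 1.83 on library totals; on totals 4 fell and 8 rose). Eif4ebp2, which holds back cap-dependent initiation, and the stress sensor Sesn3 fell by 2.06 and 1.68, and Larp1, which binds TOP tracts, by 1.22. On library totals Rrn3 and Larp1 did not pass (-0.43 and -0.37, edgeR adjusted p = 0.0694 and 0.109).

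Host genes of small nucleolar RNAs, several of which start with a TOP tract without coding for protein, gave few calls on the TMM scale. Of 9 tested, 1 rose (Snhg8, by 1.05) and 1 fell (Snhg20, by 1.16), with a median of 0.19. On library totals 6 rose and none fell, with a median of 1.06 beside 1.17 for all genes, of which 34.5% rose. Gas5 stood at 169 ± 39.3 TMM CPM (SD, n = 3) in melanoblast and 225 ± 59.1 (SD, n = 4) in adult libraries (log2 fold change 0.41, edgeR adjusted p = 0.324; 1.29 on library totals, adjusted p = 0.0053). Mitochondrial ribosomal proteins, encoded in the nucleus, gave 51 of 76 lower and a median of -1.04, and on library totals 2 lower, 4 higher and a median of -0.19. From adult to aged none of the genes in these lists was called by edgeR. The medians of that comparison were -0.83 for the ribosomal proteins outside the rule, -0.67 for elongation factors and -0.40 for initiation factors. They were -0.43 for mitochondrial ribosomal proteins, -0.34 for biogenesis factors and -0.01 for snoRNA hosts, beside -0.90 for the members and -0.34 for abundant genes. On library totals these list medians were, in the same order, -0.51, -0.35, -0.07, -0.10, 0.0055 and 0.28. The members had -0.57 and abundant genes -0.009 on that scale.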

How the data were processed

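RNA-seq was measured in 9 libraries grouped by sample title. Libraries of 126-base read pairs were made from cDNA amplified from 20 ng of RNA, per the labels' protocols, and reads are not separate molecules. STAR 2.5.2, Trimmomatic 0.36, SAMtools 1.9, FastQC 0.11.8 and DESeq2 1.22.2 are named, with mm10, in the submitters' processing notes. For the counting step, its program and its handling of strand, multi-mapped and overlapping reads are not given in the sources here. The authors deposited raw counts for each Ensembl identifier, not normalized. GENCODE M21 gave symbols for 49412 of 49671 identifiers (the other 259 held 0.029% of counts).

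From these counts, edgeR 4.0.16 (R 4.3.3; TMM, filterByExpr, group means model of all libraries, robust quasi-likelihood F test) was fitted to 31961 genes, with Benjamini-Hochberg adjustment over all of them at 0.05. SE values were derived from the F statistic. The same fit was run on library totals, chosen after seeing the data, and with the summed member counts as library size. Other alternatives were RLE and upper quartile factors, factors from genes of at least 32 CPM, mitochondrial genes left out, DESeq2 1.42.0, limma 3.58.1 voom, no filter, a filter of at least 5 CPM in 2 libraries, 2-group fits, a replicate block and each library left out. Scripts were tested on simulated data. A gene with no reads could have a level of up to 3 counts, or 0.089 to 0.238 per megacount. Chi-square values per degree of freedom between replicates were 17.5 to 75.1, well above sampling noise, so each was kept as its own replicate. Where pools are not independent, p-values measure only the spread between these samples.

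Named members were the stalk genes and Rpsa, the 8 lowest and 8 highest changes from melanoblast to adult, the 5 most abundant, the 4 with the smallest p from adult to aged, paralogue pairs, and the 6 highest and 6 lowest relative to the member total. Some members that this rule names are not reported here. Other lists gave up to 4 genes by p. Members, lists and tests were chosen with earlier results of these data known. Larp1, Ncl, Gas5, Rack1 and Rps3a1 were named for their function.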

Additional observations from a re-analysis of the deposited data

Results flagged for a closer look

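In 7 of 82 values checked (78 of them single members), adult replicate 1 stood farther below the other 3 adult libraries than Dixon's 95% criterion for 4 samples allows; chance alone gives this in about 1 of 20 groups, and the members share their libraries. The values of adult replicate 1, in TMM CPM, were 106.0 for Rpl11 (139 to 142 in the others), 88.4 for Rpl18 (116 to 118), 54.3 for Rpl19 (73.3 to 77.0), 96.8 for Rpl22 (114 to 118), 37.1 for Rpl34 (48.0 to 49.3), 164 for Rps27 (209 to 215) and 7.75 for Rps27l (14.1 to 15.1). The same library had the highest share of receptor reads among adult libraries, 1464 per megacount against 763 to 1230, and the lowest member share, 0.976%. Without adult replicate 1, 65 of 78 members were called lower from melanoblast to adult, with a median of -0.96.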

How the results depend on the processing

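The number of members called lower from melanoblast to adult changed with the processing: 73 with TMM factors, 22 with factors from genes of at least 32 CPM, 16 with library totals alone (added after seeing the data) and 54 of 76 with the filter of at least 5 CPM in 2 libraries, which changed both the genes tested and the TMM factors and where the median was -0.65. The count lay between 69 and 75 with RLE or upper quartile factors, without mitochondrial genes, and with DESeq2 or limma voom, and between 65 and 75 with 1 library left out. The 22 members called with abundant-gene factors were 28.2% of those tested, beside 25.4% of abundant genes and 5.76% of all genes. With upper quartile factors 13.3% of all genes were called lower, and with limma voom 22.8%. Shares of all genes under the other filters, the 2-group fits, the replicate block and the fits without 1 library are not given here. Of the 78 members tested, 76 were below 0 with TMM factors, 66 with factors from genes of at least 32 CPM and 65 with library totals. Among the members named in the text 7 turned sign. With factors from genes of at least 32 CPM the log2 changes were 0.070 for Rplp1, 0.060 for Rpl34, 0.18 for Rps21, 0.20 for Rpl9, 0.25 for Rpl35a, 0.40 for Rpl13a and 0.021 for Rps27, and with library totals 0.15, 0.10, 0.23, 0.24, 0.29, 0.43 and 0.064; with the filter of at least 5 CPM Rpl13a gave 0.062. From adult to aged edgeR called 0, DESeq2 20 (all genes: 0.907% lower) and limma voom 66 (all genes: 2.01%). No filter gave 21, the 2 groups alone 7, and leaving out 1 melanoblast or adult library 0 to 27 (27 without melanoblast replicate 3). Relative to the member total, 4 calls became 9 with DESeq2, 16 with limma voom, 7 with the 2 groups alone and 1 to 6 with 1 library left out. The cause of these differences was not tested. Same-numbered libraries did not deviate together (correlations from -0.179 to 0.278), so the numbers do not pair them; with the replicate block 72 members were lower from melanoblast to adult, 1 from adult to aged, and 1 was called relative to the member total. Without 1 library, the difference in summed share ran from -0.323 to -0.172 percentage points (adult less melanoblast), from -0.478 to -0.210 (aged less adult) and from -0.716 to -0.448 (aged less melanoblast).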
